A study of Mus musculus with 12 samples.

Results

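*Pcdh7*, *Pcdh9* and *Pcdh18* encode 3 protocadherins, and they are 3 of the 420 genes listed in a targeted RNA panel of extracellular matrix and cell adhesion genes. They were chosen by name after their values in these libraries were known, so what follows on them is a description, with no p-value for any of them. The libraries came from mouse pancreatic stellate cells (PSCs), the vitamin A-storing fibroblasts of the pancreas that turn into matrix-producing myofibroblasts when activated by TGF-β1. There were 12 libraries in 4 groups of 3, named A, B and C: WT cells in vehicle, PKN2 KO cells in vehicle, WT cells given TGF-β1 at 5 ng/ml and harvested 72 h later, and PKN2 KO cells after the same exposure. By the study's methods the PSCs were taken from 1 male C57BL/6 mouse that carried the inducible recombinase Rosa26CreERT2 and floxed PKN2, and they were immortalised with SV40 large T antigen. PKN2, a serine/threonine kinase of the protein kinase N family, was deleted in the dish by a short exposure to 4-hydroxytamoxifen, and how the WT controls were handled at that step is not given in the sources used here. The panel holds no amplicon for *Pkn2*, and the loss of its transcript was therefore not checked here. By the study's methods several dishes were grown per condition and n counts biological replicates, and the series describes 3 lines per genotype, while the labels do not say what the letters A, B and C stand for.

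Protocadherins are single-pass membrane proteins of the cadherin superfamily that mediate weak adhesion between like molecules and pass signals through their cytoplasmic tails. The clustered alpha and gamma protocadherins are made from gene arrays in which a variable exon is spliced to shared constant exons, whereas the non-clustered ones are separate genes. *Pcdh7* and *Pcdh9* belong to the delta-1 group, whose tail carries a docking site for protein phosphatase 1, and *Pcdh18* to the delta-2 group, which lacks that site. They are best known for axon guidance and cell sorting in the developing nervous system, and *Pcdh18* binds the adaptor Dab1.

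In the GENCODE annotation of GRCm38, *Pcdh7* (ENSMUSG00000029108) lies at chr5:57717967-58133230 on the plus strand, *Pcdh9* (ENSMUSG00000055421) at chr14:93013410-93890679 on the minus strand, and *Pcdh18* (ENSMUSG00000037892) at chr3:49743296-49757325 on the minus strand. *Pcdh9* spans 877 kb and *Pcdh7* 415 kb, against 14.0 kb for *Pcdh18*, while the longest coding sequences were of like size, at 1237, 1255 and 1134 codons. No annotated gene overlapped *Pcdh18*. The *Pcdh7* locus was overlapped by 15 other annotations, all non-coding, pseudogene or not yet classified, 1 of them on the opposite strand, and the *Pcdh9* locus by 6, with 2 on the opposite strand. The strand of the counted amplicons is not given in the sources used here. The sequence in front of each gene is shown because the 3 genes were unlike each other in their patterns over TGF-β1 and loss of PKN2. The study also asked about transcription driven by SMAD and TEAD factors. The stretches below, from RefSeq promoter windows on GRCm38.p6, run 5′ to 3′ on the strand of the gene and stop where the GENCODE gene begins, and capitals mark CpG dinucleotides.
*Pcdh7*, 136 bases at chr5:57717831-57717966: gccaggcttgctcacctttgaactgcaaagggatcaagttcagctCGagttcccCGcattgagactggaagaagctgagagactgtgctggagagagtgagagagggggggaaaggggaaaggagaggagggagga
*Pcdh9*, 250 bases at chr14:93890680-93890929: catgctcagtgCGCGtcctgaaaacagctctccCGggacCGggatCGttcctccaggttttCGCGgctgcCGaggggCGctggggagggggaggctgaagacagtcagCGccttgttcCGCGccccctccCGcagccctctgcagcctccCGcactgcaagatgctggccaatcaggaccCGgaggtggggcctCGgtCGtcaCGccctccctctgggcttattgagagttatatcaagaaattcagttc
*Pcdh18*, 241 bases at chr3:49757326-49757566: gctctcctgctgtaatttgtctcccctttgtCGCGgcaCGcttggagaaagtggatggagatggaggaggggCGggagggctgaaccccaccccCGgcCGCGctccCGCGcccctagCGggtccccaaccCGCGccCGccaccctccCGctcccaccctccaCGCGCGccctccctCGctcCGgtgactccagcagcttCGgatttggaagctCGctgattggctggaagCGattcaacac

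Over the full 250 bases before the RefSeq start site, *Pcdh18* held 23 CpG and *Pcdh9* 18, against 7 for *Pcdh7*. The median over 317 windows of the 270 panel genes that matched was 7 CpG, with quartiles of 3 and 16, so *Pcdh18* and *Pcdh9* were above the upper quartile and *Pcdh7* was at the median. The letters CATTCC, the core bound by TEAD factors, and CAGAC, a core bound by SMAD factors, were searched on both strands. Neither was in the windows of the 3 genes. Among all 32851 windows of this length, 12.6% held CATTCC and 42.2% held CAGAC. The absence of these letters in such short windows says nothing about binding elsewhere at the loci.

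Each library held between 1074095 and 1473153 reads on the panel. The values below are normalized counts, in which the authors divided the reads of a library by 1 factor set on reference genes. Different amplicons are amplified with different efficiency, so levels are compared between libraries and not between genes. *Pcdh7* rested on 190 to 721 reads per library, *Pcdh18* on 115 to 811 and *Pcdh9* on 1 to 201. Among markers of the cell types a stellate cell culture could hold, the summed level of the 8 fibroblast markers was 235160 to 520440, carried by collagens and *Sparc*, although *Dcn* had at most 52 reads and *Lum* at most 5. The 5 epithelial markers summed to 2.44 to 23.3. In bulk RNA, fewer cells of a type and less RNA per cell cannot be told apart.

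*Pcdh7* was at its lowest in WT cells in vehicle and at its highest in PKN2 KO cells in vehicle. In WT cells in vehicle the normalized counts were 224, 266 and 208 in libraries A, B and C (mean 233 ± 30.0, SD, n = 3). In PKN2 KO cells in vehicle they were 498, 509 and 493 (mean 500.1 ± 8.50, SD, n = 3). Every PKN2 KO library was thus above every WT library, and the mean was 2.15-fold higher. On the scale of log2(normalized count + 1), used for the differences throughout, this was 1.11 ± 0.16 (SE of the limma fit over the 12 libraries), the 28th highest of the 238 genes tested, whose median was 0.21.

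After TGF-β1 the WT libraries had 323, 394 and 362 normalized counts of *Pcdh7* (mean 360 ± 35.2, SD, n = 3), each above the 3 WT libraries in vehicle, with a log2 difference of 0.63 ± 0.16 (SE). With total count scaling this difference was 0.38 and the libraries overlapped. The PKN2 KO libraries after TGF-β1 had 435, 485 and 388 (mean 436 ± 48.4, SD, n = 3), each below the 3 PKN2 KO libraries in vehicle, with a log2 difference of -0.20 ± 0.16 (SE). This separation in PKN2 KO cells was narrow, and under each of the 3 other scalings tried, TMM, median of ratios and total count, the libraries overlapped. The order of the groups was WT vehicle, WT TGF-β1, PKN2 KO TGF-β1 and PKN2 KO vehicle, in which the middle 2 overlapped. After TGF-β1 the genotypes therefore differed by a log2 value of 0.28 ± 0.16 (SE), with overlapping libraries, against 1.11 in vehicle. The difference between these differences, the interaction of genotype and TGF-β1, was -0.83 ± 0.22 (SE). The PKN2 KO comparison in vehicle and the TGF-β1 comparison in WT share the WT vehicle libraries, so a low level in those libraries enters both. The summed level of the 7 endothelial markers was 10.6 to 19.6 in WT vehicle, 33.6 to 39.5 in WT TGF-β1, 14.8 to 24.7 in PKN2 KO vehicle and 17.8 to 24.1 in PKN2 KO TGF-β1, from at most 22 reads per gene and library, and its part in the level of *Pcdh7* was not tested.

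*Pcdh9* was down to a few reads after TGF-β1 in both genotypes. In vehicle the WT libraries had 132, 136 and 86.8 normalized counts (mean 118 ± 27.3, SD, n = 3), from 112, 201 and 88 reads. After TGF-β1 they had 2.36, 3.16 and 1.92 (mean 2.48 ± 0.629, SD, n = 3), from 2, 4 and 2 reads. The groups were far apart, and the summed reads per unit of the authors' factor were 47.3 times higher in vehicle, with an exact 95% interval of 23.8 to 110 that covers counting error only. The log2 difference of -5.09 ± 0.43 (SE) was the 6th lowest of the 238 genes, among which *Pcdh9* was kept through its vehicle libraries alone.

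In PKN2 KO cells in vehicle *Pcdh9* was at 73.8, 68.5 and 59.4 normalized counts (mean 67.2 ± 7.33, SD, n = 3), from 63, 97 and 56 reads. Each was below each WT library in vehicle, and the mean was 56.9% of that in WT, a log2 difference of -0.78 ± 0.43 (SE). After TGF-β1 the PKN2 KO libraries had 1.37, 6.88 and 2.44 (mean 3.56 ± 2.92, SD, n = 3), from 1, 8 and 2 reads. The ratio of vehicle to TGF-β1 in PKN2 KO cells was 16.6, with a counting interval of 9.09 to 33.7, and the log2 difference was -4.09 ± 0.43 (SE), the 10th lowest of 238. Between the genotypes after TGF-β1 the ratio of PKN2 KO to WT was 1.60, with an interval of 0.585 to 4.58, and at 11 reads against 8 no difference was detectable at this depth. The fitted log2 values against these few reads depend on the pseudocount, at -4.02 in WT and -3.12 in PKN2 KO with a pseudocount of 5.

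Markers listed for leukocytes were lower in sum after TGF-β1, by less than *Pcdh9*. Their summed level was 191 to 376 in the 6 vehicle libraries and 45.0 to 84.8 in the 6 libraries after TGF-β1. It was carried by the integrin subunits *Itgb7* and *Itgb2*, of which *Itgb7* fell by 2.32 in WT cells (adjusted p = 1.51e-05, limma) and by 2.16 in PKN2 KO cells (adjusted p = 3.61e-05). These comparisons called 50.8% and 48.7% of all genes. Of the 9 markers 2 were tested, *Itgal* and *Cd84* had no read in any library, and *Itgam*, *Itgax* and *Siglec1* had at most 1. Their part in the level of *Pcdh9* was not tested.

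*Pcdh18* was lower in PKN2 KO cells with and without TGF-β1. In vehicle the WT libraries had 378, 548 and 472 normalized counts (mean 466 ± 85.3, SD, n = 3) and the PKN2 KO libraries 197, 247 and 202 (mean 216 ± 27.6, SD, n = 3). After TGF-β1 the WT libraries had 398, 450 and 468 (mean 438 ± 36.5, SD, n = 3) and the PKN2 KO libraries 157, 175 and 203 (mean 178 ± 22.8, SD, n = 3). With and without TGF-β1 each PKN2 KO library was below each WT library. The PKN2 KO mean was 46.3% of that in WT in vehicle, a log2 difference of -1.10 ± 0.18 (SE) and the 5th lowest of 238, and 40.7% after TGF-β1, a log2 difference of -1.30 ± 0.18 (SE) and the 11th lowest. The TGF-β1 difference of *Pcdh18* was -0.07 ± 0.18 (SE) in WT cells and -0.27 ± 0.18 (SE) in PKN2 KO cells, and the libraries with and without it overlapped in both genotypes. The interaction was -0.20 ± 0.26 (SE). These separations between genotypes were present under the 3 other scalings as well.

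**Figure D1:**
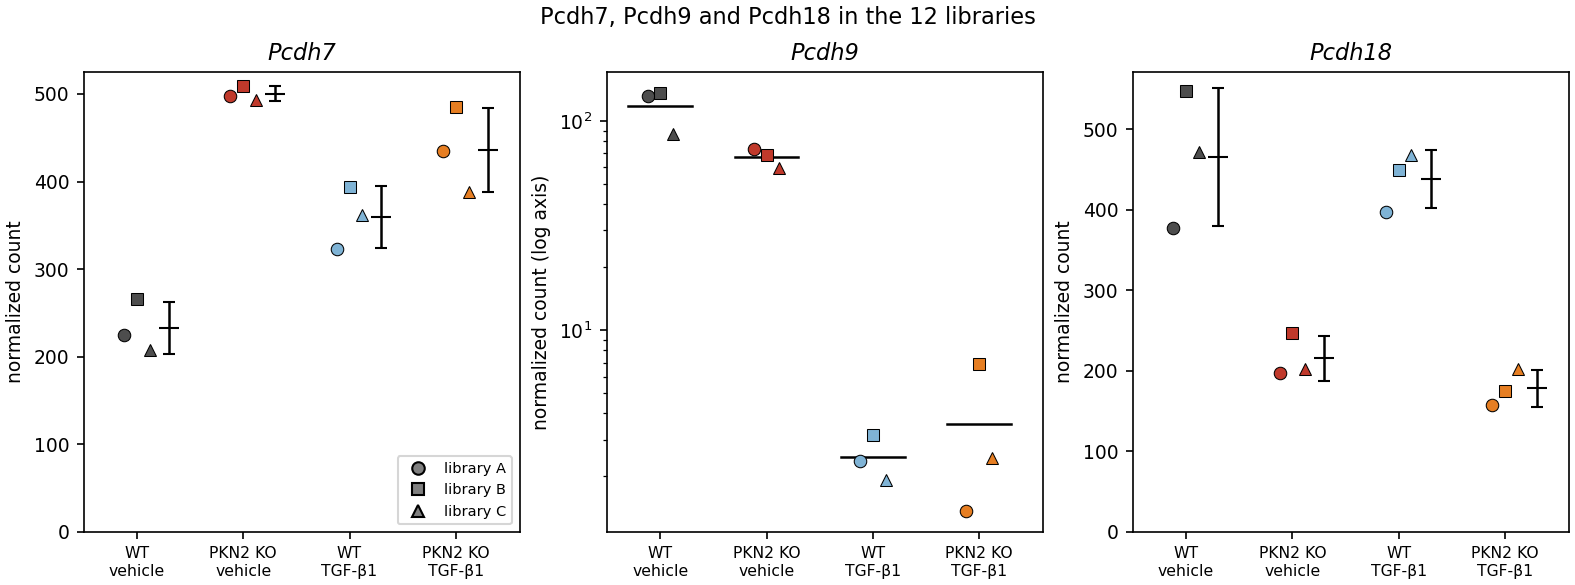
Normalized count of each gene in the 12 libraries, by group on the x axis, with 1 symbol per library. Bars are the mean ± SD of 3 libraries for *Pcdh7* and *Pcdh18* on linear axes from 0, and the line is the mean for *Pcdh9*, on a log axis. The PKN2 KO libraries in vehicle stand highest for *Pcdh7* at 493 to 509, the TGF-β1 libraries of both genotypes stand at 1.37 to 6.88 for *Pcdh9*, and the PKN2 KO libraries stand lowest for *Pcdh18* at 157 to 247.

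The 3 genes thus showed different patterns over the same 4 groups, and the plot of their differences sets them side by side. Between *Pcdh7* and *Pcdh18* the genotype difference in vehicle had opposite signs at nearly the same size, 1.11 and -1.10. The closeness in size depended on the scaling, at 0.92 and -1.28 with TMM and 0.88 and -1.33 with median of ratios. *Pcdh9* shared the sign of *Pcdh18* in vehicle and differed from both in the size of its TGF-β1 difference. As a distance between patterns, the root mean square difference of the centred log2 values over the 12 libraries was 0.99 for *Pcdh7* and *Pcdh18*, 2.31 for *Pcdh9* and *Pcdh18* and 2.52 for *Pcdh7* and *Pcdh9*.

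**Figure D2:**
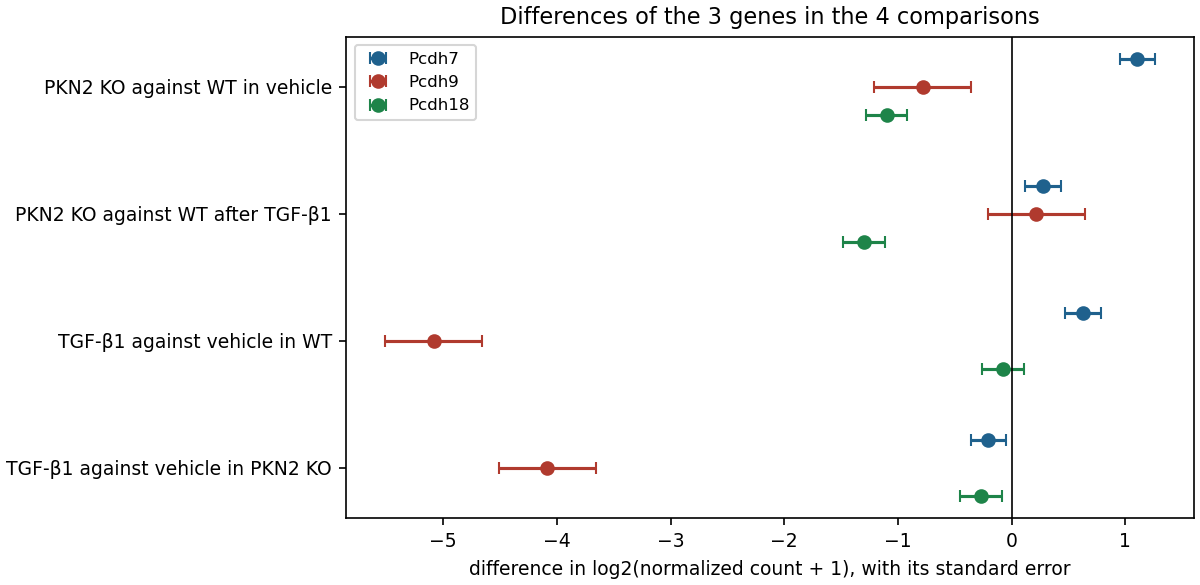
Difference in log2(normalized count + 1) of the 3 genes in the 4 comparisons of 2 groups, with points for the difference and bars for its SE from the limma fit. *Pcdh9* lies at -5.09 and -4.09 in the TGF-β1 comparisons, and *Pcdh7* and *Pcdh18* lie on opposite sides of 0 for the genotype comparison in vehicle.

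Since the genes were chosen on these contrasts, the counts that follow support nothing and are given with the share among all genes tested. For PKN2 KO against WT in vehicle, 2 of the 3 genes passed an adjusted p of 0.05 (limma, Benjamini-Hochberg over 238 genes), where 13.9% of all genes did, and 3 had groups that did not overlap, where 32.4% did. After TGF-β1 the genotype comparison called 1 gene, with 15.1% of all genes, and 1 did not overlap, with 28.2%. For TGF-β1 against vehicle in WT cells 2 genes were called, with 50.8% of all genes, of which *Pcdh7* was not called with total count scaling, and 2 did not overlap, with 55.9%. In PKN2 KO cells TGF-β1 called 1 gene, with 48.7% of all genes, and 2 did not overlap, with 52.9%. The interaction called 0 of the 3 with limma, where 3.36% of all genes were called, 0 with edgeR, where 2.52% were, and 1 with DESeq2, where 4.62% were. An unadjusted p under 0.05 in limma was given to 1 of the 3 and to 9.66% of all genes.

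**Figure D3:**
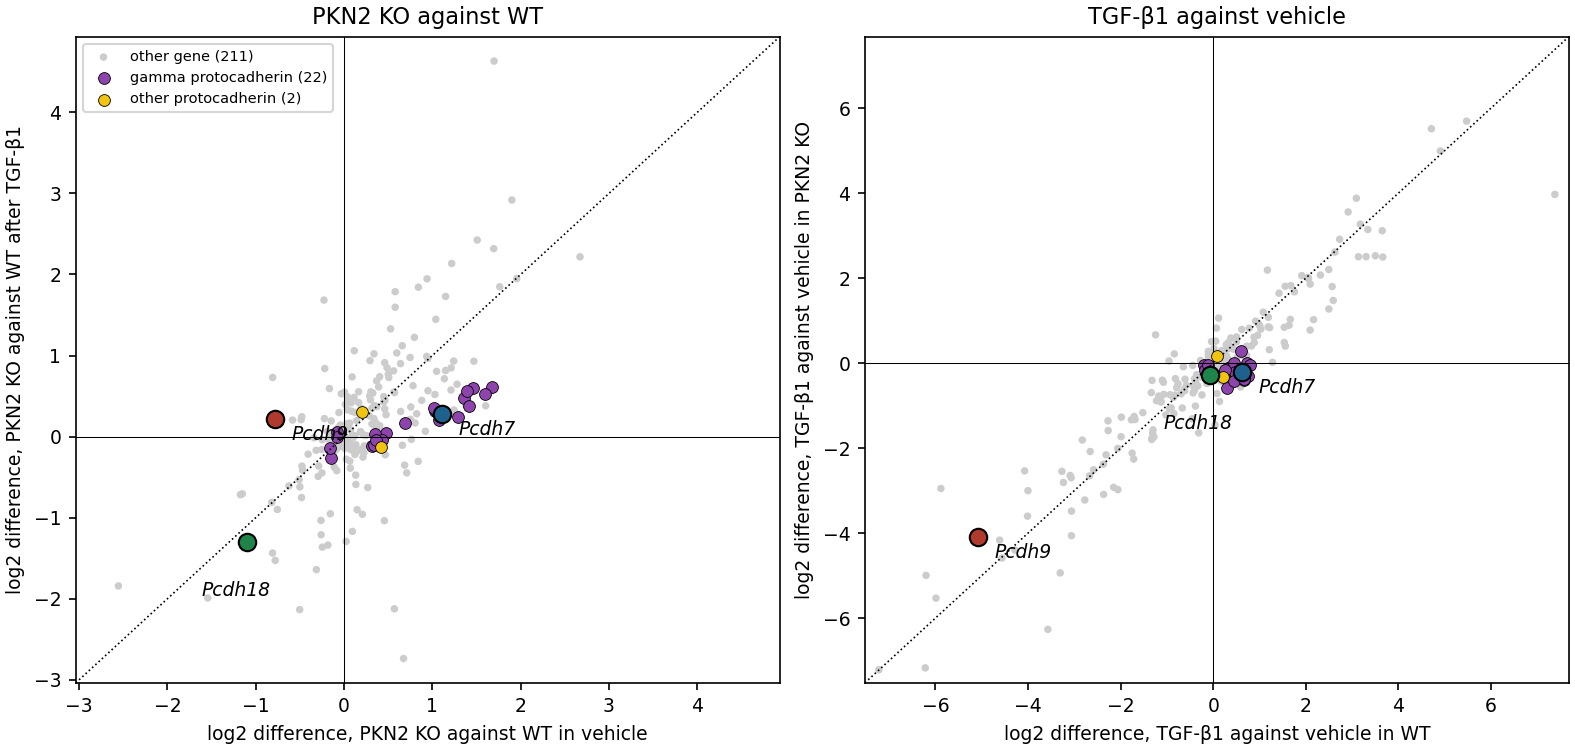
Log2 differences of the 238 genes tested, with PKN2 KO against WT in vehicle on the x axis and after TGF-β1 on the y axis at left, and TGF-β1 against vehicle in WT on the x axis and in PKN2 KO on the y axis at right. Grey points are 211 other genes, purple points 22 gamma protocadherins and yellow points *Pcdh1* and *Pcdh19*, and the dotted line marks equal differences. *Pcdh18* lies near the line at -1.10 and -1.30 at left, *Pcdh7* lies well under it at 1.11 and 0.28, and *Pcdh9* lies at the low end at right.

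Of the other 40 protocadherins on the panel, 24 were tested, namely *Pcdh1*, *Pcdh19* and 22 gamma protocadherins. The delta-2 genes *Pcdh8* and *Pcdh17*, and the delta-1 gene *Pcdh11x*, had at most 2 reads in any library, and *Pcdh8* had 0 in all 12. The 13 alpha protocadherins had at most 5 reads in any library and were not tested. *Pcdh1*, a delta-1 gene, had means between 739 and 973 over the 4 groups, and its difference for PKN2 KO in vehicle was 0.21 ± 0.16 (SE; adjusted p = 0.464, limma). *Pcdh19*, a delta-2 gene whose mutation causes an epilepsy in people, had means between 218 and 290.4, with a difference of 0.42 ± 0.20 (SE; adjusted p = 0.202) in the same comparison. Neither passed the test in any of the 5 comparisons. In vehicle the 2 genotypes did not overlap for either gene, with the higher values in PKN2 KO cells. The same held for 57 of all 238 genes tested. The median difference over all genes in that comparison was 0.21, equal to that of *Pcdh1*.

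Among the 22 gamma protocadherins, 3 rose and 0 fell in PKN2 KO cells in vehicle, a share near the 13.9% called among all genes. Their median log2 difference was 0.86, against 0.21 over all genes. Of their differences 18 of 22 were above 0, as were those of 166 of all 238 genes tested. *Pcdhga9* had 82.6, 159 and 124 normalized counts in WT cells and 268, 363 and 248 in PKN2 KO cells, with no overlap, a difference of 1.29 ± 0.29 (SE; adjusted p = 0.00736, limma). *Pcdhga11* (1.68 ± 0.49, SE; adjusted p = 0.0323) and *Pcdhgb5* (1.59 ± 0.49, SE; adjusted p = 0.0429) were the others. The calls of all 3 genes were lost with TMM, median-of-ratios and total count scaling, with adjusted p up to 0.106, 0.15 and 0.183 over the alternatives, while their differences stayed above 1.0. Those of *Pcdhga11* and *Pcdhgb5* were lost also with no trend of the variance and with edgeR, and without library A or C of WT in vehicle, any PKN2 KO library in vehicle or library C of WT after TGF-β1, and that of *Pcdhgb5* with no filter on low values and without library C of PKN2 KO after TGF-β1. They were called in 11 and 9 of the 22 alternatives. TGF-β1 in WT cells, which called 50.8% of all genes, called 1 gamma protocadherin, *Pcdhga3*, which rose by 0.61 ± 0.22 (SE; adjusted p = 0.032, limma) from 88.5, 79.7 and 95.6 to 119, 131 and 155 normalized counts, a call lost with TMM and total count scaling and without library A or B of WT in vehicle or B or C of WT after TGF-β1. This comparison shares the WT vehicle libraries with the first.

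The comparison of genotypes after TGF-β1, the TGF-β1 comparison in PKN2 KO cells and the interaction called 0 of the 24 other protocadherins with limma, edgeR and DESeq2, and 0, 0 and 1 had an unadjusted p under 0.05. Among all 238 genes limma called 15.1%, 48.7% and 3.36%, and 68, 123 and 23 had an unadjusted p under 0.05. The median difference of the 22 gamma protocadherins was 0.19, -0.20 and -0.59 in these 3 comparisons, against 0.13, -0.14 and -0.07 over all genes, beside 0.28, -0.20 and -0.83 for *Pcdh7*. The 3 gamma protocadherins with the most counts, *Pcdhga10*, *Pcdhgc5* and *Pcdhgc3*, did not pass in any comparison. Their differences for PKN2 KO in vehicle were -0.15, -0.08 and -0.16, with adjusted p of 0.798, 0.9 and 0.756 (limma). Gamma transcripts share their constant exons and overlap on chromosome 18, so how reads were divided among them is uncertain.

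**Figure D4:**
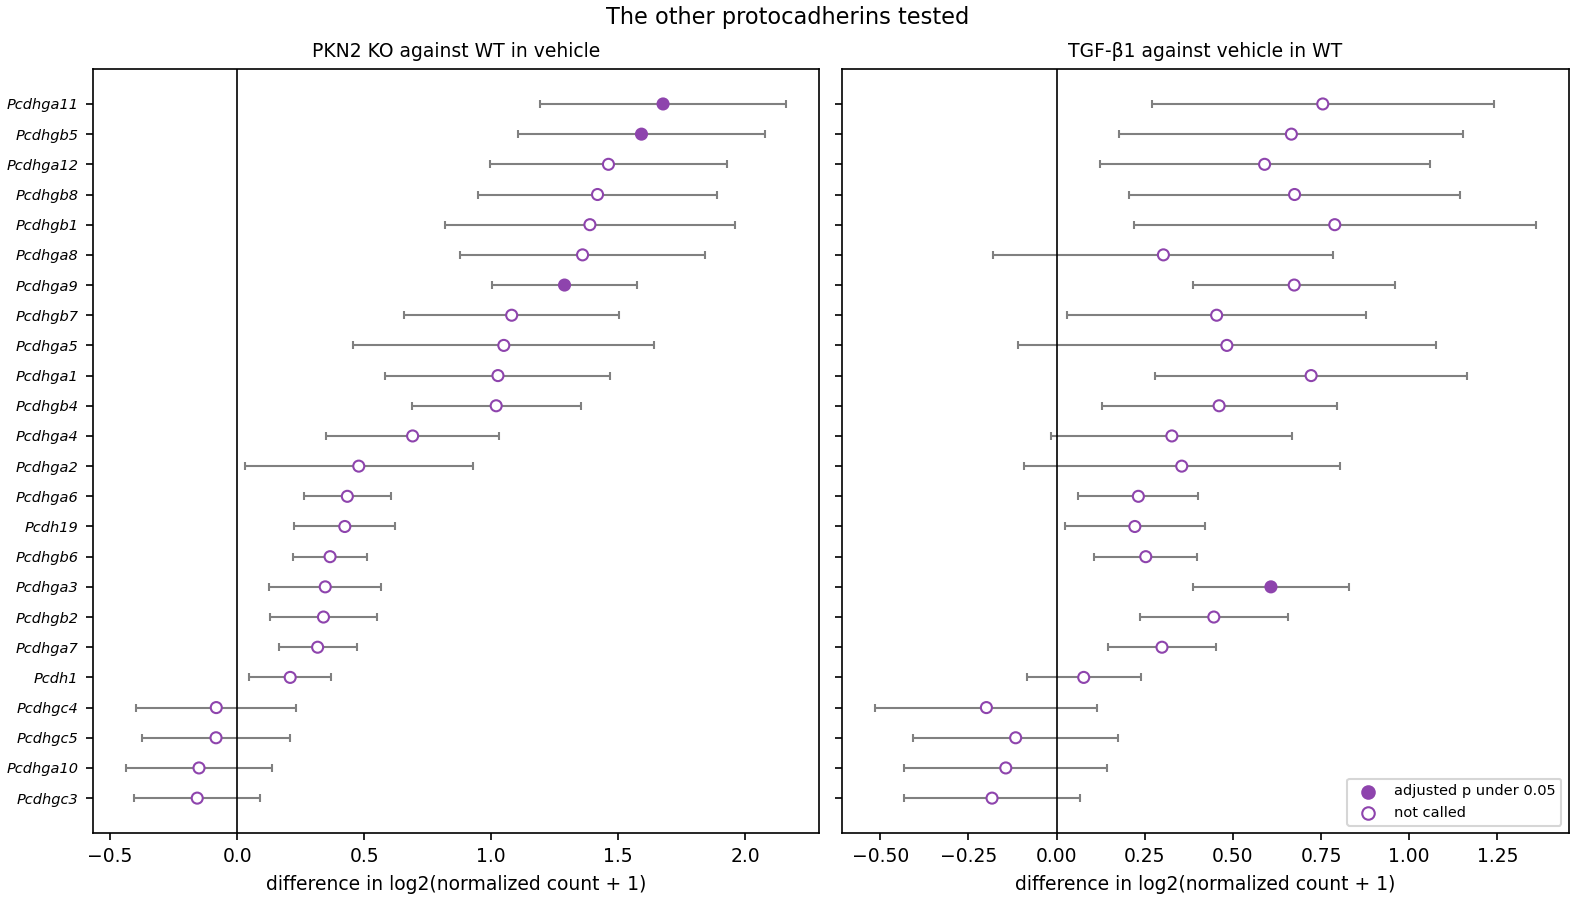
Difference in log2(normalized count + 1) ± SE of the 24 other protocadherins tested, ordered by PKN2 KO against WT in vehicle (left) and in the same order for TGF-β1 against vehicle in WT (right). Filled points passed an adjusted p of 0.05. *Pcdhga11*, *Pcdhgb5* and *Pcdhga9* are filled at left and *Pcdhga3* at right, and the WT vehicle libraries are the reference in both.

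Cadherins and the catenins that tie them to actin were counted as a further list of 29 genes, of which 10 were tested. Between genotypes the only gene called in vehicle was *Cdh18*, lower in PKN2 KO cells, where 13.9% of all genes were called. After TGF-β1 *Cdh18* and *Cdh2* were called, both lower in PKN2 KO cells, where 15.1% of all genes were. *Cdh18* passed the filter on low values through the WT vehicle libraries alone, so these calls support nothing on the list and its counts are given without the test. It had 18.9, 23.6 and 24.7 normalized counts in WT vehicle and 1.17, 3.53 and 5.30 in PKN2 KO vehicle, and after TGF-β1 it had 4, 8 and 4 reads in WT and 1, 1 and 0 in PKN2 KO. *Cdh2*, N-cadherin of mesenchymal cells, was lower in PKN2 KO than in WT cells after TGF-β1, with a difference of -0.75 ± 0.21 (SE; adjusted p = 0.026, limma). In vehicle this genotype difference was -0.48 ± 0.21 (SE; adjusted p = 0.171). With TGF-β1, 2 of the 10 rose and 3 fell in WT cells, and 4 rose and 2 fell in PKN2 KO cells, near the 50.8% and 48.7% of all genes called. The falls in WT cells include *Cdh18* and *Cdh26*, and those in PKN2 KO cells include *Cdh26*, which were kept through vehicle libraries alone. *Cdh6* rose most, from 21.2, 12.2 and 16.8 to 805, 679 and 832 normalized counts in WT cells (5.47 ± 0.28, SE; adjusted p = 1.82e-09), and *Cdh11*, a cadherin of activated fibroblasts, rose by 2.06 ± 0.30 (SE; adjusted p = 3.67e-05). *Cdh26*, which passed the filter through its vehicle libraries alone, had 107, 149 and 154 normalized counts in WT vehicle and 0, 2.37 and 1.92 after TGF-β1. *Cdh23* fell in WT cells by 0.91 ± 0.30 (SE; adjusted p = 0.0178), and was not called without library B of WT in vehicle or B or C of WT after TGF-β1. In PKN2 KO cells *Dchs1*, a giant cadherin of planar cell polarity, rose with a difference of 0.83 ± 0.32 (SE; adjusted p = 0.0431), a call lost in 12 of the 22 alternatives and in 9 of the 12 with a library left out, the exceptions being library A of WT in vehicle, C of PKN2 KO in vehicle and B of PKN2 KO after TGF-β1. The call of *Cdh2* was lost without library A or C of WT or library B of PKN2 KO after TGF-β1, with adjusted p up to 0.124.

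The genes whose patterns lay closest to each protocadherin were found by the same root mean square difference over the 12 libraries. They were chosen for this likeness, so their values are a description. Closest to *Pcdh7* were *Pcdhga9* (0.28), *Pcdhga6* (0.30) and *2700049A03Rik* (0.31), where the median gene lay at 0.66 and *Pcdh7* itself varied by 0.43 around its mean. Means of *Pcdhga6* were 263, 355, 307 and 299 normalized counts in WT vehicle, PKN2 KO vehicle, WT TGF-β1 and PKN2 KO TGF-β1. *L1cam*, an adhesion molecule of nerve cells and the one tested gene of the nerve and glial list, also rose in PKN2 KO cells in vehicle (0.88 ± 0.20, SE; adjusted p = 0.00912, limma) and with TGF-β1 in WT cells (0.68 ± 0.20, SE; adjusted p = 0.0116). The first call was lost without library C of WT or A of PKN2 KO in vehicle, and the second without library B of WT in vehicle. These comparisons called 13.9% and 50.8% of all genes, and *L1cam* was named after its values were seen. The summed level of that list was 715 to 1005 in WT vehicle, 1176 to 1766 in PKN2 KO vehicle, 1166 to 1501 in WT TGF-β1 and 1527 to 1997 in PKN2 KO TGF-β1, and of its 7 genes *Mag*, *Cdh19*, *Ncan* and *Nlgn1* had no read. Its part in the level of *Pcdh7* was not tested.

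Closest to *Pcdh9* were *Amigo2* (0.45), an adhesion molecule with leucine-rich repeats, *Vcam1* (0.66), the adhesion receptor for leukocyte integrins, and *Adamts5* (0.78), a protease that cleaves aggrecan, where the median gene lay at 2.37. *Amigo2* passed the filter on low values through its vehicle libraries alone. After TGF-β1 it had 1, 2 and 0 reads in WT cells and 0, 1 and 0 in PKN2 KO cells, so its closeness to *Pcdh9* there depends on the pseudocount. *Vcam1* had 1106, 864 and 851 normalized counts in WT vehicle and 46.0, 37.9 and 59.6 after TGF-β1, and *Adamts5* had 2820, 2272 and 3041 against 118, 82.2 and 134. In PKN2 KO vehicle the mean of *Adamts5* was 1231, against 2711 in WT vehicle. Closest to *Pcdh18* were *Thsd7a* (0.37), a membrane protein with thrombospondin repeats, *Cdh2* (0.44) and *Cdh23* (0.51), where the median gene lay at 0.997. *Pcdh18* itself varied by 0.63 around its mean, not far above the value of *Cdh23*. *Thsd7a* had means of 228 and 129 in WT and PKN2 KO vehicle and of 173 and 64.0 after TGF-β1. Its libraries after TGF-β1 were all below those in vehicle in both genotypes, where *Pcdh18* had overlapping libraries. The log2 difference of *Thsd7a* was -0.38 ± 0.21 (SE) in WT cells and -1.01 ± 0.21 (SE) in PKN2 KO cells.

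**Figure D5:**
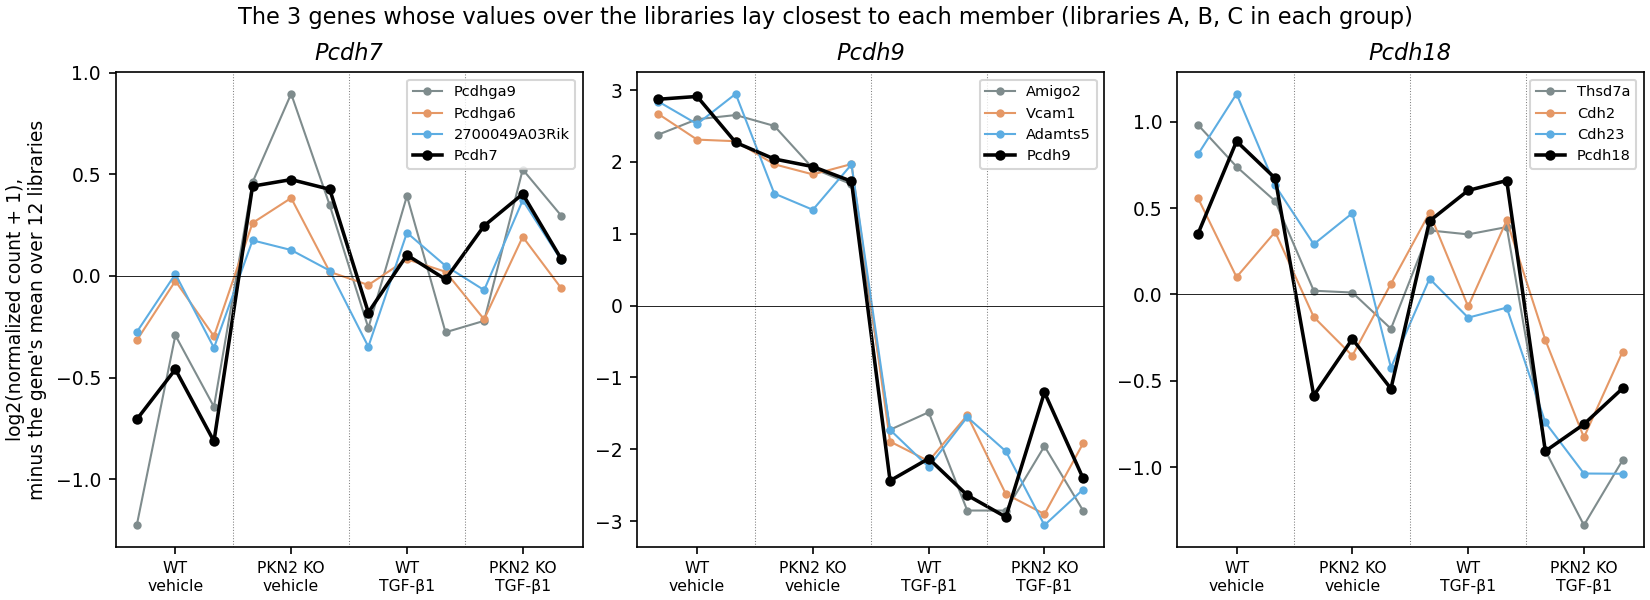
Values of log2(normalized count + 1), with each gene's mean over the 12 libraries taken off, for each protocadherin (black) and its 3 closest genes (colours). Libraries A, B and C stand side by side in each group on the x axis. The drop of *Pcdh9* and its closest genes after TGF-β1 spans several log2 units and *Pcdh18* is lowest in the PKN2 KO groups.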

How the data were processed

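RNA of 12 libraries was amplified with the QIAseq mouse extracellular matrix and cell adhesion panel and sequenced by the authors. The authors deposited a table of raw counts and 2 of normalized counts, the latter a signal in which every count of a library was divided by the same factor, set on reference genes that are not named. STAR, DESeq2 1.32 and mm10 are named in the submitters' processing notes, and the study's methods name Qiagen's own pipeline for the reads per gene. Of the raw counts, 6 columns carry a repeated group name and were not used. The 12 libraries were taken from the normalized tables, from which whole reads were recovered by dividing by each library's step. These equalled the 2520 deposited raw counts of the 6 uniquely named columns. Ensembl identifiers were matched to symbols for 420 of 420 genes.

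The test covered the 238 genes that reached a normalized count of 10 in 3 or more libraries, in R 4.3.3 with limma 3.58.1 (lmFit, contrasts, eBayes with a trend and robust estimation) on log2(normalized count + 1), with 1 mean per group and Benjamini-Hochberg adjustment at 0.05. The fit was tested on simulated data. Counting intervals are exact at 95%. Alternatives were TMM, median-of-ratios and total count scaling, pseudocounts of 0.5 and 5, no filter, a replicate block, no trend of the variance, each library left out, edgeR 4.0.16 and DESeq2 1.42.0 on the recovered reads. The 3 genes and all gene lists were chosen with earlier results of these data known. Named genes were the 3 members, the other non-clustered protocadherins, the 3 clustered ones with the highest mean and up to 4 called per comparison, up to 3 called cadherins or catenins per comparison and direction, and the 3 genes closest to each member in pattern. *Itgb7*, *Itgb2* and *L1cam* were named after their values were seen, since they carry 2 of the marker lists. Some genes of the marker lists are not reported here.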

Additional observations from a re-analysis of the deposited data

Results flagged for a closer look

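The TGF-β1 difference of *Pcdh7* was 0.63 in WT cells and -0.20 in PKN2 KO cells on the log2 scale, with every library on one side in WT and every library on the other in PKN2 KO. The interaction, which is the difference between these values, was -0.83 ± 0.22 (SE). The gene was chosen on these values, so no p-value is given for it, and an independent test of the difference was not made. With TMM, median-of-ratios and total count scaling the PKN2 KO libraries with and without TGF-β1 overlapped, and with total count scaling those of WT did too.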

How the results depend on the processing

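Each difference of the 3 genes kept its sign in all 22 alternatives, except that of *Pcdh9* between genotypes after TGF-β1 and that of *Pcdh18* for TGF-β1 in WT cells, which turned in 1 each, at -0.27 without PKN2 KO TGF-β1 library B and at 0.05 without WT vehicle library B. Some alternatives could not change a difference, namely the replicate block, no trend of the variance and no filter. A left-out library of a group outside the comparison could not change it either, so these count for nothing in the agreement. Of 150 values under other settings, which include those of the block, the trend and the filter, 141 moved by less than the replicate SD. The others were *Pcdh7* for PKN2 KO in vehicle (0.92 with TMM, 0.88 with median of ratios), *Pcdh18* there (-1.33 with median of ratios), the TGF-β1 differences with total count scaling of *Pcdh7* (0.38 in WT, -0.40 in PKN2 KO) and *Pcdh18* (-0.32 and -0.47), and those of *Pcdh9* with a pseudocount of 5 (-4.02 and -3.12). The scaling itself moved the median over all genes, for PKN2 KO in vehicle from 0.21 to 0.03 with TMM and -0.02 with median of ratios, and with total count for TGF-β1 from 0 to -0.25 in WT and from -0.14 to -0.34 in PKN2 KO.

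The number of genes called between genotypes after TGF-β1 was 36, and 56 with TMM, 55 with median of ratios and 65 with total count, and the interaction called 8, and 4 with no trend of the variance. Of the other protocadherins, PKN2 KO in vehicle called 3, and 0 with TMM and median of ratios, 1 with total count, no trend or edgeR and 6 with DESeq2. TGF-β1 in WT called 1, and 0 with TMM, 4 with total count and 2 with DESeq2, and in PKN2 KO 0, and 3 with total count and 1 with no filter. The causes of these moves were not tested.

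With the replicate block 87 genes were called between genotypes in vehicle, 101 after TGF-β1 and 42 interactions, and of the other protocadherins 15, 7 and 8, with 11 for TGF-β1 in WT and 3 in PKN2 KO. Among the 3 genes chosen on these contrasts, the block added 1 call, that of *Pcdh7* for the interaction. The letters did not pair the libraries by the rule set for it, which asks for every same-lettered correlation of deviations above 0.1. This held for the 6 pairs of letter A (0.35 to 0.70) and the 6 of letter B (0.60 to 0.68) but for 1 of 6 of letter C (-0.23 to 0.14), and no label says what a letter stands for.

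With 1 library left out, 18 to 38 genes were called between genotypes in vehicle (18 without WT vehicle C or PKN2 KO vehicle A, 20 without PKN2 KO vehicle C) and 0 to 11 interactions (0 without PKN2 KO vehicle B or WT TGF-β1 C, 1 without WT vehicle B, PKN2 KO vehicle A or WT TGF-β1 A, 2 without WT vehicle C or PKN2 KO vehicle C, 3 without PKN2 KO TGF-β1 B or C). Of the other protocadherins, 1 to 9 were called between genotypes in vehicle (9 without WT vehicle B, 7 without WT TGF-β1 A, 6 without PKN2 KO TGF-β1 A or B, 1 without any other of the vehicle libraries or WT TGF-β1 C) and 0 to 3 for TGF-β1 in WT (0 without WT vehicle A or WT TGF-β1 B or C, 2 without WT vehicle B, 3 without WT TGF-β1 A). A left-out library never changed which of the 3 genes were called, but the genes were chosen on these contrasts, so this supports nothing. Other settings did change which were called. *Pcdh7* lost its call for TGF-β1 in WT with total count scaling, and gained 1 for the interaction with the replicate block and with DESeq2. The few reads of *Pcdh9* after TGF-β1, 1 to 8 per library, limit what can be said of it there.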
